A study of Mus musculus with 6 samples.

Results

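The 10 genes described here encode enzymes of the glycerol phosphate route of triglyceride synthesis, Gpd1, Gpam, Agpat2, Agpat3, Agpat4, Lpin1, Lpin2, Lpin3, Dgat1 and Dgat2. They were found by symbol among the 24537 genes of the deposited expression table, and all 10 passed the filter on low values. The list was chosen with earlier results of these data known. RNA sequencing of murine brown adipocytes compared vehicle-treated cells (CTL, 3 libraries) with cells treated with 4-chlorobenzoic acid (4CBA, 3 libraries), an inhibitor of COQ2 that blocks the synthesis of coenzyme Q (CoQ). Both groups came from 1 immortalized line of brown preadipocytes, differentiated for 6 days in culture. 4CBA was given at 4 mM from day 4, and the labels give 48 h of treatment with the medium refreshed after 24 h, whereas the methods of the study give a shorter time. Its methods also describe pooling of 3 independent biological replicates, and a figure legend gives RNA pools and 3 independent experiments per treatment. The labels name no separate cultures behind the replicates, so the p-values measure the spread between libraries, which may be technical.

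Adipocytes store fatty acids as triglyceride in lipid droplets, and in brown adipocytes the droplets feed the mitochondria during heat production. The route starts from glycerol 3-phosphate, which GPD1 makes from a glycolytic intermediate. GPAT and AGPAT enzymes add fatty acyl chains to give phosphatidate, lipins remove its phosphate to give diacylglycerol, and DGAT enzymes add the last acyl chain. Phosphatidate and diacylglycerol are also precursors of membrane phospholipids, so the route branches before the DGAT step.

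Levels are RPKM values, in which reads are divided by transcript length and by depth, so those of different genes can be set side by side. The length is that of the 1 isoform kept for each gene. Ranks, sums and shares across genes therefore depend on that choice. Fold changes are ratios of mean RPKM unless a log2 value is named, and log2 fold changes are on the log2(RPKM + 1) scale, 4CBA against CTL, which understates changes of low genes. Of the 12659 genes tested with limma, 68.4% passed an adjusted p of 0.05 (Benjamini-Hochberg over all tested genes), 38.4% as higher and 30.0% as lower in 4CBA. That balance depended on scaling, with 4860 genes higher and 3804 lower here, 3950 and 4693 with libraries scaled to the same median, and 4495 and 4412 in the authors' log2 values. Against this background, 6 of the 10 triglyceride synthesis genes fell, 3 rose and Lpin1 did not pass the threshold, and with scaled libraries 7 fell and 2 rose. Among all tested genes 6.0% fell by at least 1 on the log2 scale, and 4 of the 10 did so, Gpd1, Gpam, Dgat1 and Agpat2. None of the 10 rose by at least 1, which 5.47% of all tested genes did. Genes of the same steps outside the 10 moved both ways. Gpat3, Gpat4 and Agpat1 rose (log2 fold changes 1.72, 0.37 and 0.54), and Agpat5 fell (-0.37). The median log2 fold change was -0.39 over the 10 genes and 0.06 over all tested genes. Since the 10 genes were chosen with earlier results of these data known, these values describe the list and do not test it.

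**Figure D1:**
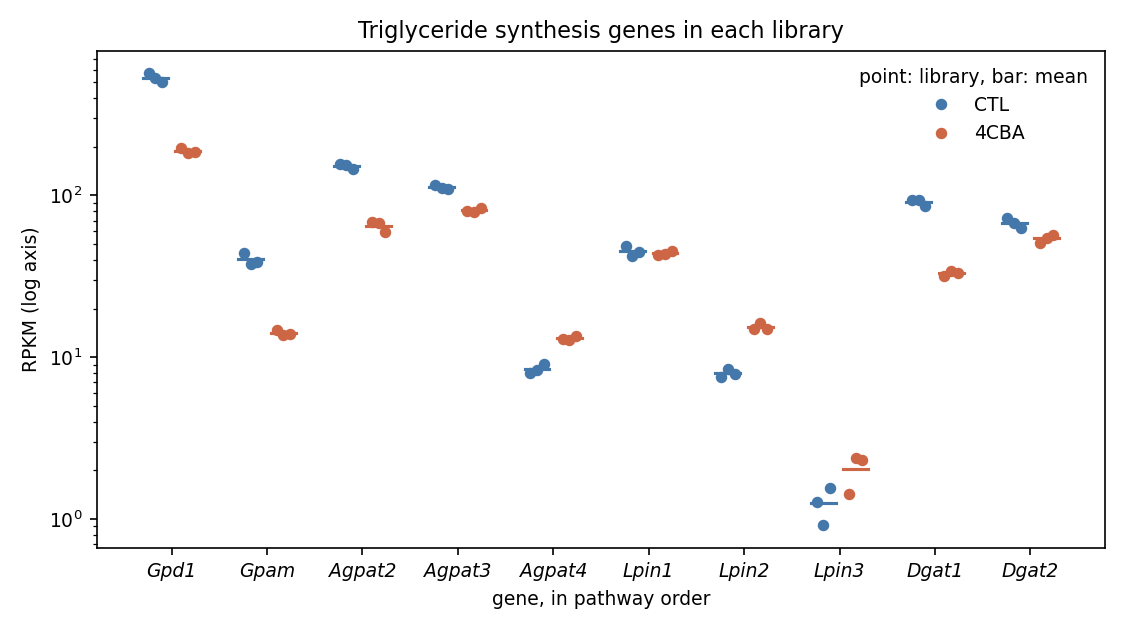
RPKM on a log axis of the 10 triglyceride synthesis genes in pathway order, with a point for each library and a bar at the mean of 3 libraries per group. The groups overlap only for Lpin1 and Lpin3, and the CTL points of Gpd1, Gpam, Agpat2 and Dgat1 stand furthest above their 4CBA points.

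Estimated depth ran from 9400000 to 12240000 reads in a library. Over the tested genes, which are not independent of each other, libraries of 1 group correlated at r = 0.9921 to 0.9931 and libraries of different groups at r = 0.9113 to 0.9168. The adipocyte markers (Adipoq, Plin1, Fabp4 and others) were expressed in every library, with a summed level of 11483 to 11987 RPKM in CTL and 6088.3 to 7493.7 in 4CBA, and 7 of 10 fell, 1 rose and 2 did not pass. The summed brown adipocyte markers (Ucp1, Cidea and others) were at 1037 to 1098 RPKM in CTL and 153 to 171 in 4CBA. Of 8 tested, 7 were lower, and Elovl3 was higher, at a mean of 1.95 RPKM in CTL and 6.59 in 4CBA. Cox7a1 made up most of the sum, at a mean of 780 RPKM in CTL and 90.5 in 4CBA. Preadipocyte and fibroblast markers summed to 296 to 336 RPKM in CTL and 51.9 to 55.6 in 4CBA, with 8 of 9 tested lower and none higher. Most of the CTL sum was Col1a1 and Col3a1, at means of 118 and 110 RPKM in CTL and 6.96 and 7.04 in 4CBA. All 8 macrophage and all 7 endothelial markers were below 1 RPKM in every library, with 3 of each at 0. Of the 8 skeletal muscle markers, 5 were at 0 throughout, and their sum was 5.88 to 6.26 RPKM in CTL and 10.2 to 11.5 in 4CBA. Most of that difference was Acta1, at a mean of 0.276 RPKM in CTL and 4.43 in 4CBA. Des was at 5.84 and 6.35 RPKM and did not pass (limma adjusted p = 0.232). Most tested adipocyte, brown adipocyte and preadipocyte markers fell, whereas the 10 genes moved both ways, with 6 lower and 3 higher. The part of these markers in the results for the 10 genes was not tested. In bulk RNA, fewer cells of a type and less RNA per cell cannot be told apart.

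Promoter windows of 7 of the 10 genes were matched in RefSeq (GRCm38.p6), 11 windows in all, and Gpd1, Dgat1 and Dgat2 had none. The 250 bases before the start site were searched on both strands for 6 motifs. The 4 windows printed here are the first listed for some of the genes that moved in opposite directions, Gpam and Agpat2, which fell, and Agpat4 and Lpin2, which rose. Gpam has 2 windows and Lpin2 has 3, for different start sites. Capitals mark a motif match, positions are counted back from the start site, and ATTGG is a CCAAT box on the opposite strand.
Gpam: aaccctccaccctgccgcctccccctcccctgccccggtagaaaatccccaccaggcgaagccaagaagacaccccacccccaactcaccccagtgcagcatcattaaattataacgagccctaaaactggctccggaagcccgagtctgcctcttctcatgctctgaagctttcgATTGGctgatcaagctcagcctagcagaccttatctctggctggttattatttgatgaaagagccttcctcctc
Agpat2: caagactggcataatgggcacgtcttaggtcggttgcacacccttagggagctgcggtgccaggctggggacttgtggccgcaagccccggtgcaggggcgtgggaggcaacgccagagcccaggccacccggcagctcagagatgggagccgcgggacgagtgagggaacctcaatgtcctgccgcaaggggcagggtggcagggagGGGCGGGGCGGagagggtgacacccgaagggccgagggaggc
Agpat4: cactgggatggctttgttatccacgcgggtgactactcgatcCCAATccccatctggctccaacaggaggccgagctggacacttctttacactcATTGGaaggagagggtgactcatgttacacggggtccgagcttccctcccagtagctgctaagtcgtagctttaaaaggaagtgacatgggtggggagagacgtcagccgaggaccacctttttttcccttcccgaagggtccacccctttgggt
Lpin2: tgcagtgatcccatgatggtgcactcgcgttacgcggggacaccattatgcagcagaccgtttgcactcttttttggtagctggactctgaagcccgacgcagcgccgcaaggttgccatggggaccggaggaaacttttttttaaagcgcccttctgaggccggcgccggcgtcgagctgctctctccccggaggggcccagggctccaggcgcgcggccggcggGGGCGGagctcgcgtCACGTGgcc
The first Gpam window lies at chr19:55127239-55127488 on the minus strand and holds a CCAAT box at -74, and the second, not printed, holds a GC box at -16. The Agpat2 window, at chr2:26604418-26604667 on the minus strand, holds overlapping GC boxes (GGGCGG) at -42 and -37. The Agpat4 window, at chr17:12119034-12119283 on the plus strand, holds CCAAT boxes at -208 and -155. The first Lpin2 window, at chr17:71183282-71183531 on the plus strand, holds a GC box at -24 and an E-box (CACGTG) at -9. Of the other Lpin2 windows, not printed, 1 holds a GC box at -79 and 1 holds CCAAT boxes at -233, -165 and -57. The windows of Agpat3 and Lpin1 and the first window of Lpin3, also not printed, hold none of the 6 motifs. The second Lpin3 window holds a GC box at -111. Over the 11 windows, the CCAAT box was found in 3, the GC box in 5 and the E-box in 1, whereas 33.8%, 32.7% and 6.02% of 32851 mouse promoter windows of this length hold them. No window of these genes held the TATA box (TATAAA), the cAMP response element (TGACGTCA) or the C/EBP-ATF element (TGATGCAA), which 12.4%, 1.55% and 0.791% of all windows hold. A match describes the letters in the window and is no measure of binding.

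To ask whether 4CBA changed the supply of the glycerol backbone, Gpd1 was examined first. Gpd1 (NM_010271) lies on chromosome 15 (99717515 to 99725005, plus strand, GENCODE vM21 on GRCm38, the assembly also called mm10) and has 8 exons. Its levels were 569, 529 and 506 RPKM in CTL and 195, 182 and 186 RPKM in 4CBA. Every 4CBA library lay far below every CTL library. The mean fell from 535 ± 32.0 to 188 ± 6.93 RPKM (SD, n = 3), 2.85-fold, with a log2 fold change of -1.50 (SE 0.0570, limma adjusted p = 6.80e-10). It was the most abundant of the 10 genes in both groups. The annotated antisense transcript Gm16537 shares exon bases with Gpd1 and has no value of its own here, so its reads cannot be told apart from those of Gpd1 if strand was not used in counting. Gpd1l, a paralog of Gpd1, was at 12.2 ± 0.733 and 11.2 ± 0.531 RPKM and did not pass the threshold (limma adjusted p = 0.146), although it was called lower with libraries scaled to the same median (log2 fold change -0.23, limma adjusted p = 0.00848) and in the authors' log2 values (log2 fold change -0.18, limma adjusted p = 0.0139). Gpd1 carried 97.8% of their summed level in CTL and 94.4% in 4CBA.

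Gpam encodes GPAT1, the acyltransferase of the outer mitochondrial membrane that adds the first acyl chain. It spans 21 exons on chromosome 19 (55067268 to 55127238, minus strand). Its levels were 44.3, 37.7 and 38.8 RPKM in CTL and 14.8, 13.8 and 13.9 RPKM in 4CBA. The groups were well separated and the 4CBA libraries lay close together. Gpam fell 2.85-fold, from 40.3 ± 3.57 to 14.2 ± 0.559 RPKM (n = 3, log2 fold change -1.44, SE 0.0684, limma adjusted p = 4.49e-09).

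The other tested genes of this step rose. Gpat3, listed under its older symbol Agpat9 and encoding a GPAT of the endoplasmic reticulum, rose 3.41-fold from 17.9 ± 1.19 to 61.1 ± 3.33 RPKM (limma adjusted p = 5.81e-10). Gpat4, a further GPAT of the endoplasmic reticulum, rose 1.30-fold (limma adjusted p = 7.60e-05), and Gpat2 was below 0.1 RPKM in every library and was not tested. Gpam made up 49.2% ± 1.95 of the summed GPAT level in CTL and 13.4% ± 0.744 in 4CBA (SD, n = 3). Gpat3 went from 21.9% ± 0.388 to 57.7% ± 1.21, and Gpat4 was near 28.8% in CTL and 28.9% in 4CBA. The summed GPAT level was higher in 4CBA, 106 ± 3.54 against 81.7 ± 4.04 RPKM.

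Agpat2 encodes the main AGPAT of adipose tissue, whose loss causes a generalized lipodystrophy in humans. The gene has 6 exons on chromosome 2 (26593057 to 26604417, minus strand). Agpat2 levels were 158, 154 and 146 RPKM in CTL and 68.5, 67.6 and 59.4 RPKM in 4CBA. All 4CBA libraries were lower than all CTL libraries, and replicate 3 was the lowest of each group. Agpat2 fell 2.34-fold, from 152.5 ± 5.73 to 65.2 ± 5.03 RPKM (n = 3, log2 fold change -1.22, SE 0.0630, limma adjusted p = 9.96e-09). Its exons share bases with those of Egfl7 on the opposite strand. Egfl7 was at 5.06 to 5.63 RPKM in CTL and 6.71 to 8.84 RPKM in 4CBA. Reads of the shared bases cannot be told apart between Agpat2 and Egfl7 if strand was not used in counting.

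Agpat3, which is also active on other lysophospholipids, lies on chromosome 10 (78269178 to 78352489, minus strand). Its levels were 117, 112 and 110.1 RPKM in CTL and 80.2, 79.0 and 83.8 RPKM in 4CBA. The groups did not overlap, but the gap was smaller than for Agpat2. Agpat3 fell 1.39-fold, from 113 ± 3.47 to 81.0 ± 2.46 RPKM (n = 3, log2 fold change -0.47, SE 0.0509, limma adjusted p = 5.81e-06). Gm40709 on the opposite strand shares exon bases with Agpat3 and has no value here.

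Agpat4, a paralog best known from brain, lies on chromosome 17 (12118704 to 12219645, plus strand). Agpat4 was at 7.95, 8.34 and 9.06 RPKM in CTL and at 13.0, 12.9 and 13.5 RPKM in 4CBA. Here every 4CBA library was above every CTL library. Agpat4 rose 1.55-fold, from 8.45 ± 0.563 to 13.1 ± 0.320 RPKM (n = 3, log2 fold change 0.58, SE 0.0670, limma adjusted p = 1.05e-05).

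Within each library the ratio of Agpat2 to Agpat3 was 1.35, 1.38 and 1.33 in CTL and 0.854, 0.855 and 0.709 in 4CBA. Agpat2 was thus the higher of the pair in CTL and the lower in 4CBA. The log2 ratio differed by -0.75 between groups (two-sided exact permutation test, p = 0.1, the smallest that 3 against 3 allows, adjusted p = 0.15 over 6 pairs). The ratio of Agpat3 to Agpat4 went from 14.7, 13.4 and 12.2 to 6.16, 6.15 and 6.22, a log2 difference of -1.11 (exact permutation p = 0.1, adjusted p = 0.15). Agpat1, an AGPAT outside the 10 genes, rose 1.47-fold from 38.9 ± 0.271 to 57.2 ± 2.23 RPKM (limma adjusted p = 1.95e-06), and Agpat5 fell 1.31-fold (limma adjusted p = 2.16e-04). Agpat2 made up 46.6% of the summed AGPAT level in CTL and 28.6% in 4CBA, Agpat1 11.9% and 25.1%, and Agpat4 2.58% and 5.76%. Agpat3 stayed near 34.5% and 35.6%.

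**Figure D2:**
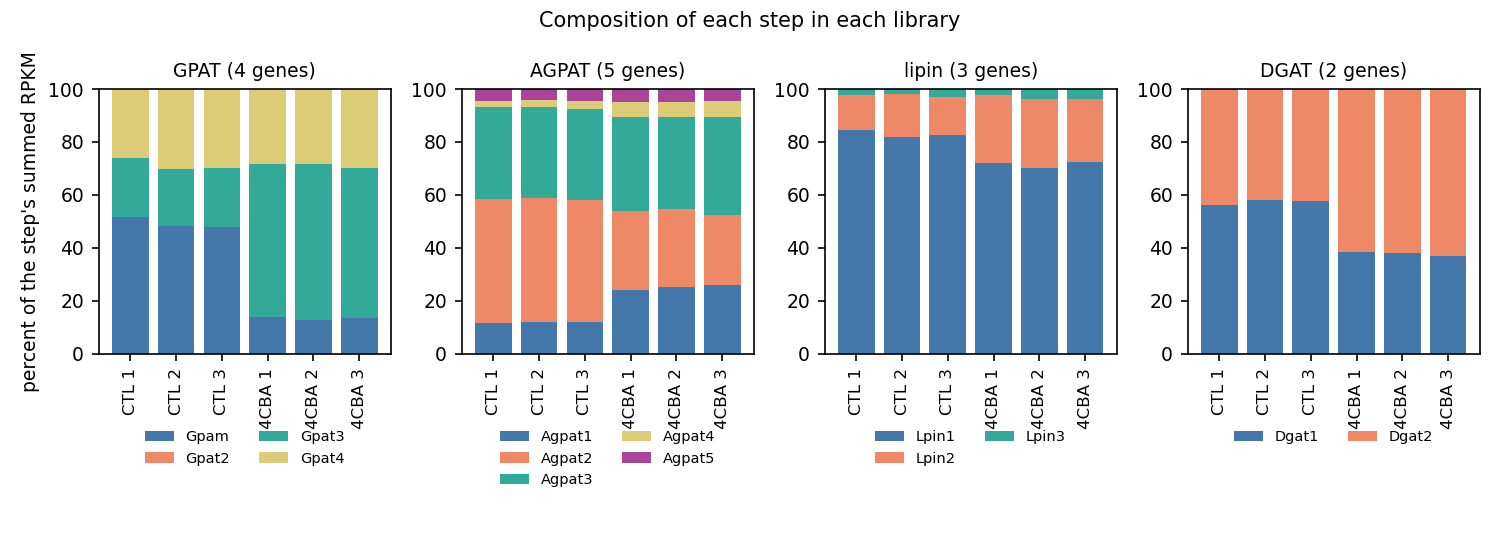
Share of each gene in the summed RPKM of its step, in percent, for each of the 6 libraries and for the GPAT, AGPAT, lipin and DGAT genes. Gpat3 takes the place of Gpam as the largest GPAT share, and Dgat2 that of Dgat1, in all 3 4CBA libraries.

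The lipins convert phosphatidate to diacylglycerol and, in the nucleus, also act on transcription. Lpin1, the main lipin of adipose tissue, lies on chromosome 12 (16535669 to 16610966, minus strand). Its levels were 48.5, 42.5 and 44.6 RPKM in CTL and 42.7, 43.7 and 45.6 RPKM in 4CBA. The 4CBA range lay inside the CTL range. The means were 45.2 ± 3.03 and 44.0 ± 1.46 RPKM (n = 3), and the log2 fold change of -0.04 had a 95% interval of -0.17 to 0.09 (limma adjusted p = 0.594). With libraries scaled to the same median the value was -0.15 and passed the threshold (limma adjusted p = 0.0294), and without CTL replicate 1 it was 0.013 (limma adjusted p = 0.864). Both deposited tables hold 1 isoform per gene, and for Lpin1 the RPKM table holds NM_172950 and the log2 table NM_015763. In the authors' log2 values Lpin1 had a log2 fold change of -0.11 (limma adjusted p = 0.0685).

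Lpin2, which is mutated in the inflammatory Majeed syndrome of humans, lies on chromosome 17 (71182560 to 71249817, plus strand). Lpin2 was at 7.57, 8.48 and 7.92 RPKM in CTL and at 15.0, 16.2 and 15.0 RPKM in 4CBA. All 4CBA libraries were well above all CTL libraries. Lpin2 rose 1.93-fold, from 7.99 ± 0.460 to 15.4 ± 0.672 RPKM (n = 3, log2 fold change 0.87, SE 0.0667, limma adjusted p = 3.16e-07), the largest rise among the 10 genes.

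Lpin3, a lipin best known from intestine and liver, lies on chromosome 2 (160880670 to 160906002, plus strand) and was the lowest of the 10 genes in both groups. Lpin3 was at 1.28, 0.914 and 1.56 RPKM in CTL and at 1.44, 2.37 and 2.32 RPKM in 4CBA, at an estimated 38 to 88 reads per library. The groups overlapped, since 4CBA replicate 1 was below CTL replicate 3. The mean rose 1.63-fold, from 1.25 ± 0.326 to 2.04 ± 0.525 RPKM (n = 3, log2 fold change 0.43, SE 0.148, limma adjusted p = 0.0227). The call was lost without CTL replicate 1 (limma adjusted p = 0.0508), CTL replicate 2 (limma adjusted p = 0.101), 4CBA replicate 2 (limma adjusted p = 0.084) or 4CBA replicate 3 (limma adjusted p = 0.0839). The isoform of Lpin3 also differs between the deposited tables, NM_001199118 in the RPKM table and NM_022883 in the log2 table.

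The ratio of Lpin1 to Lpin2 within a library was 6.41, 5.02 and 5.63 in CTL and 2.84, 2.71 and 3.04 in 4CBA. All 4CBA ratios were below all CTL ratios, a log2 difference of -0.99 (two-sided exact permutation p = 0.1, adjusted p = 0.15 over 6 pairs). The ratios of Lpin1 to Lpin3 (log2 difference -0.74, exact permutation p = 0.2) and of Lpin2 to Lpin3 (log2 difference 0.24, exact permutation p = 0.5) overlapped between groups. Lpin1 made up 83.0% of the summed lipin level in CTL and 71.6% in 4CBA, and Lpin2 14.7% and 25.1%. Of the phosphatase complex that dephosphorylates lipins at the endoplasmic reticulum, the catalytic subunit Ctdnep1 rose 1.21-fold (limma adjusted p = 0.00207), and its partner Cnep1r1 was at 32.8 ± 1.23 and 29.4 ± 2.89 RPKM (limma adjusted p = 0.0669). Cnep1r1 was called lower with libraries scaled to the same median (limma adjusted p = 0.00550), in the authors' log2 values (limma adjusted p = 0.00506) and without 4CBA replicate 1 (limma adjusted p = 0.0104).

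Dgat1 and Dgat2 catalyse the same last step but are unrelated in sequence. Dgat1 has 17 exons on chromosome 15 (76502015 to 76511953, minus strand). Its levels were 93.2, 93.9 and 86.2 RPKM in CTL and 31.6, 34.0 and 33.2 RPKM in 4CBA. The groups stood far apart. Dgat1 fell 2.77-fold, from 91.1 ± 4.25 to 32.9 ± 1.21 RPKM (n = 3, log2 fold change -1.44, SE 0.0554, limma adjusted p = 7.71e-10).

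Dgat2, which lies on chromosome 7 (99153658 to 99182719, minus strand), changed far less. Dgat2 was at 73.1, 67.8 and 62.9 RPKM in CTL and at 51.1, 55.0 and 57.0 RPKM in 4CBA. The groups did not overlap, although the lowest CTL and the highest 4CBA library were close. Dgat2 fell 1.25-fold, from 67.9 ± 5.09 to 54.4 ± 3.00 RPKM (n = 3, log2 fold change -0.31, SE 0.0652, limma adjusted p = 0.00107). The ratio of Dgat1 to Dgat2 within a library was 1.28, 1.39 and 1.37 in CTL and 0.619, 0.619 and 0.582 in 4CBA, so Dgat1 was the higher of the pair in every CTL library and the lower in every 4CBA library. The log2 difference was -1.15 (two-sided exact permutation p = 0.1, adjusted p = 0.15 over 6 pairs). Dgat1 was 57.3% ± 1.10 of the summed DGAT level in CTL and 37.7% ± 0.820 in 4CBA.

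**Figure D3:**
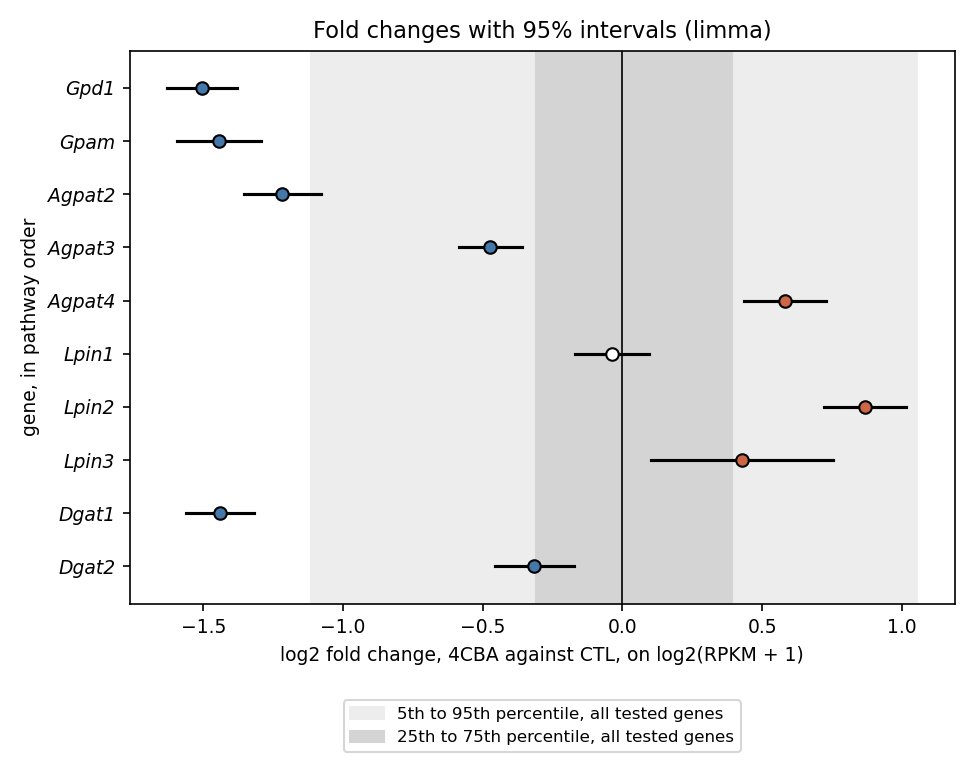
Log2 fold changes of the 10 genes (limma, on log2(RPKM + 1)), with 95% intervals as lines, against bands that hold the middle 50% and 90% of all tested genes. Points are blue for lower, red for higher and white for not past the threshold, and Gpd1, Gpam, Agpat2 and Dgat1 lie below the 5th percentile of -1.11.

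Ranked by mean RPKM in CTL, the order was Gpd1, Agpat2, Agpat3, Dgat1, Dgat2, Lpin1, Gpam, Agpat4, Lpin2 and Lpin3. The ranges over libraries overlapped only between the neighbours Lpin1 and Gpam and between Agpat4 and Lpin2. In 4CBA the order was Gpd1, Agpat3, Agpat2, Dgat2, Lpin1, Dgat1, Lpin2, Gpam, Agpat4 and Lpin3, and no neighbours overlapped. Dgat1 and Gpam each moved below Lpin genes that they had exceeded or matched in CTL. In all, the ranges of CTL and 4CBA did not overlap for 8 of the 10 genes, 6 lower and 2 higher, where the share among all tested genes was 72.7% (31.8% lower and 40.9% higher).

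Summed over all genes of a step, the direction differed along the route. The summed level of Gpd1 and Gpd1l was 546.9 ± 32.4 RPKM in CTL and 199 ± 7.46 in 4CBA, 2.75-fold lower. The 5 AGPAT genes summed to 327 ± 8.38 and 227.6 ± 1.14 RPKM, 1.44-fold lower, and both DGAT genes to 159 ± 8.88 and 87.3 ± 4.01 RPKM, 1.82-fold lower. The GPAT genes summed 1.30-fold higher in 4CBA, and the lipins 1.13-fold higher, at 54.5 ± 2.72 and 61.4 ± 2.02 RPKM. No step overlapped between groups. With libraries scaled to the same median, which was chosen for these sums after the data were seen, the GPAT sum was 1.20-fold higher and the lipin sum 1.04-fold higher with overlapping groups.

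**Figure D4:**
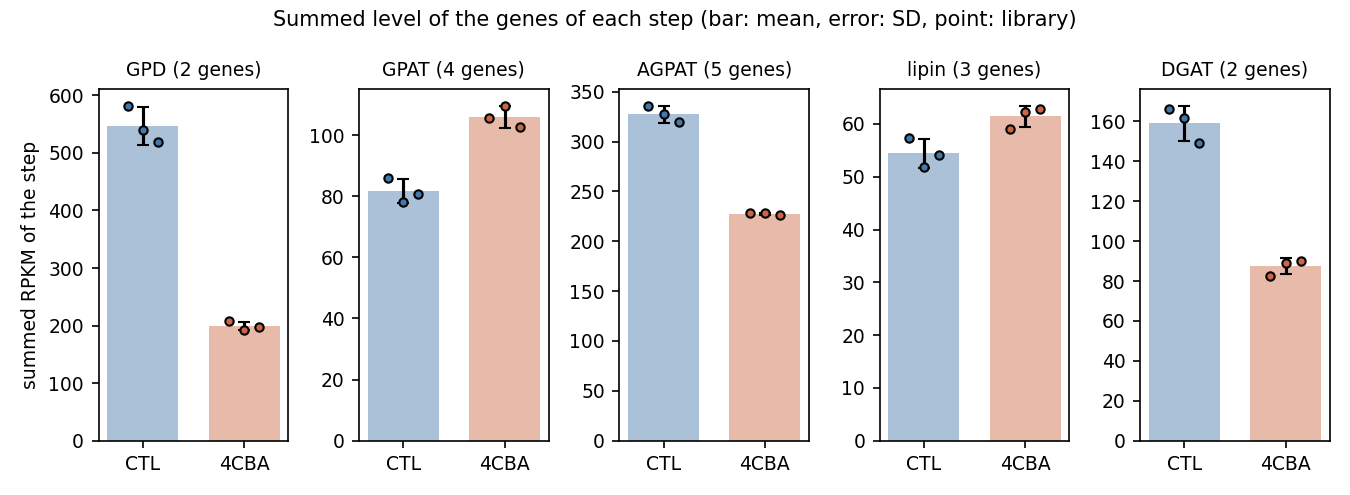
Summed RPKM of the genes of each step in CTL and 4CBA, with bars at the mean, error bars of 1 SD and a point for each of 3 libraries per group, each panel with its own axis from 0. The GPD, AGPAT and DGAT sums are lower in 4CBA, and the GPAT and lipin sums are higher.

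The genes around the route were described from lists chosen with results of these data known. Of 7 other tested genes of glycerol phosphate supply, 4 fell, 1 rose and 2 did not pass (median log2 fold change -0.73), and 6 fell with libraries scaled to the same median and in the authors' log2 values. Those that fell included glycerol kinase Gk (2.31-fold), the glucose transporter Slc2a4 (4.68-fold) and Gpd2 (2.74-fold), the mitochondrial partner of Gpd1 in the glycerol phosphate shuttle. Gpd2 uses glycerol phosphate, so the list mixes supply with use. Pck2, a mitochondrial enzyme that makes phosphoenolpyruvate, rose 1.68-fold. Its paralog Pck1 was below the filter and not tested, at 0.659 ± 0.378 RPKM in CTL and 0.058 ± 0.0738 RPKM in 4CBA. Of 8 other acyltransferases, 5 rose and 3 fell (median 0.36). Besides Gpat3, Gpat4, Agpat1 and Agpat5, these included Lclat1, which remodels cardiolipin and rose 1.79-fold, Lpgat1, which fell 1.55-fold, and Mogat1, an alternative source of diacylglycerol, which fell from 1.82 ± 0.801 to 0.271 ± 0.217 RPKM. Mogat2 was below the filter in both groups.

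Diacylglycerol and phosphatidate also enter phospholipids, and 9 of 19 tested genes of this use rose, 7 fell and 3 did not pass (median 0.09). Cept1, which makes phosphatidylcholine and phosphatidylethanolamine from diacylglycerol, rose 1.99-fold, whereas Chpt1, which also makes phosphatidylcholine from it, fell 2.81-fold. Cds2, which draws phosphatidate to CDP-diacylglycerol, rose 1.54-fold, and Dgkd, a kinase that returns diacylglycerol to phosphatidate, rose 1.70-fold. Plpp3, a lipid phosphate phosphatase, fell 2.61-fold, and Cds1 was below the filter. Of 10 tested genes that activate or take up fatty acids, 5 rose, 3 fell and 2 did not pass (median 0.16). Acsl4 and Acsl3 rose 2.29-fold and 1.63-fold, while Acsl1, the main acyl-CoA synthetase of adipocytes, fell 1.81-fold and the fatty acid binding protein Fabp5 fell 2.74-fold. Among the alternatives, the count of 5 rising genes in this list held only with a filter at RPKM 5. It became 3 with libraries scaled to the same median, in the authors' log2 values, and without CTL replicate 1, CTL replicate 2 or 4CBA replicate 1. Under the other alternatives it was 4.

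Of the 7 genes of triglyceride breakdown, 6 fell and 1 rose (median -0.97), with Pnpla3 6.28-fold and the monoacylglycerol lipase Mgll 2.27-fold lower and Abhd6, which also hydrolyses monoacylglycerol, 2.60-fold higher. The list mixes lipases with their regulators, and G0s2, an inhibitor of the lipase encoded by Pnpla2 and the most abundant gene of the list, was among those that fell, from 467 ± 17.5 to 213.5 ± 10.2 RPKM. Of 11 transcriptional regulators known to act on lipid storage, 8 fell, 2 rose and 1 did not pass (median -0.62). Pparg fell 2.78-fold and Cebpa 4.90-fold, the pair of factors that drive the adipocyte program, and Srebf1, a factor for lipid synthesis genes, fell 1.54-fold. The coactivators Ppargc1b and Ppargc1a fell 6.34-fold and 1.88-fold. Srebf2, best known for cholesterol synthesis genes, rose 1.69-fold, and Nr1h2, a liver X receptor, rose 1.24-fold. Pparg, Cebpa and Ppargc1a, Lipe and Pnpla2 of the breakdown list, and Cd36, Lpl and Fabp4 of the uptake list are also among the adipocyte or brown adipocyte markers. Fabp4, a fatty acid binding protein, made up most of the summed adipocyte markers, at 8619.7 RPKM in CTL and 4846 in 4CBA, and was 1 of the 3 uptake genes that fell.

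**Figure D5:**
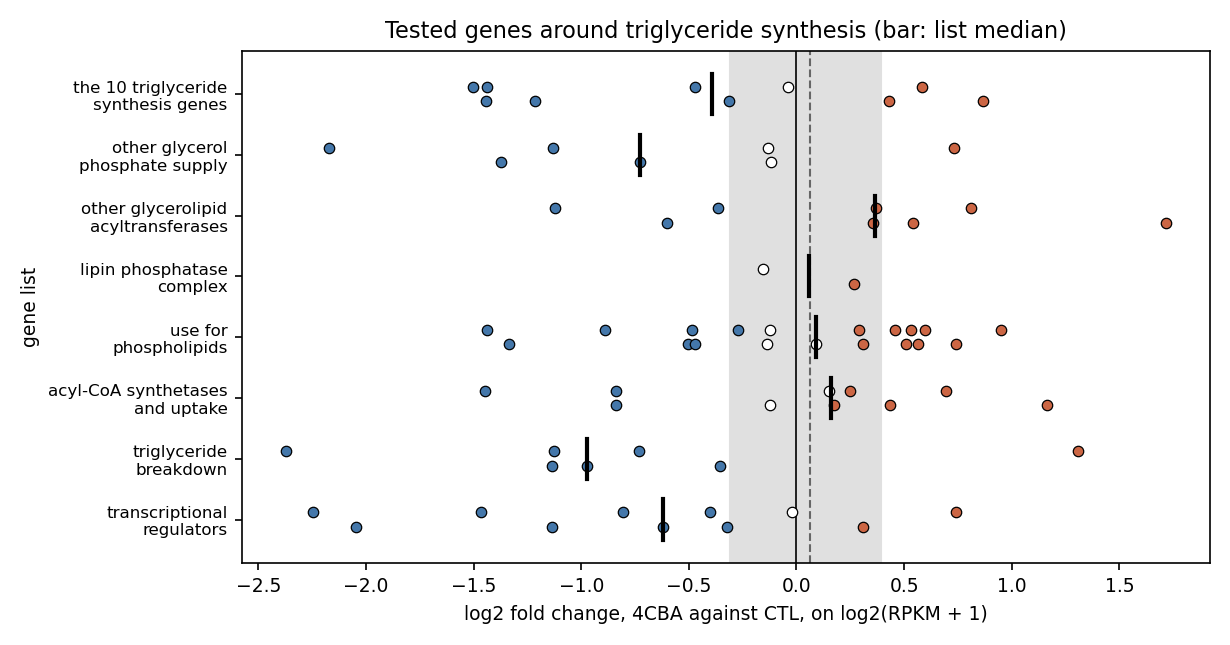
Log2 fold changes (limma, on log2(RPKM + 1)) of the tested genes of each list, with blue points for lower, red for higher and white for not past the threshold, a black bar at the median of the list, grey for the middle 50% of all tested genes and a dashed line at their median of 0.06. Among these lists, which leave out the cell type markers, breakdown and glycerol phosphate supply have the lowest medians, -0.97 and -0.73.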

How the data were processed

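RNA sequencing covered 6 libraries, 3 CTL and 3 4CBA, grouped by the sample labels. The authors mapped reads with STAR to mm10, counted them over exons with HOMER with 1 RefSeq isoform kept for each gene. RPKM values of these reads were deposited. Per its header, the RPKM command covered 24 libraries, and 6 of them are columns of the table. A second table deposited by the authors holds log2 values of the same libraries, used here only as an alternative, and 3 columns of the authors' own DESeq2 comparison (fold change, p-value and adjusted p-value), which were not used. Not given in the sources used here are the versions of these tools and whether counting used strand. For 3782 genes, 2 of them among the 10 described here, the tables hold different isoforms.

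A gene entered the test if 3 or more libraries reached an RPKM of 0.5, which left 12659 genes, tested on log2(RPKM + 1) with limma 3.58.1 in R 4.3.3 (trend and robust estimation), with p-values adjusted by the Benjamini-Hochberg method over all of them and a threshold of 0.05. The procedure was run on simulated data in which far fewer genes changed than were called here. That run does not show how it performs when most genes change. Ratios of paralogs were compared by two-sided exact permutation tests with Benjamini-Hochberg adjustment over 6 pairs. SDs are over 3 libraries. Depth was inferred by looking for the read total at which low RPKM values become whole reads. Of values under 6 reads, for transcripts of 1000 to 4000 bases, 75.7% to 77.3% fell within 0.1 of a whole read, so read numbers are estimates and no count test was run.

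All 10 genes are named, and from the other lists a set of core genes and the 2 largest changes in each direction among called genes whose higher group averaged 1 RPKM or more. Fabp4, G0s2, Pck1 and the markers Cox7a1, Elovl3, Col1a1 and Col3a1 were named after their values were seen. The 10 genes and the lists were chosen with earlier results of these data known. Alternatives were a pseudocount of 0.1, no filter or a filter at RPKM 5, the authors' log2 values, scaling of libraries to 1 common median, fitting without robust estimation, a block for the replicate number, and leaving out single libraries. Positions come from GENCODE vM21 and promoter windows from RefSeq (GRCm38.p6). Other steps used Python 3.11.15 with numpy 2.4.6, pandas 2.3.3, scipy 1.17.1 and matplotlib 3.10.9.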

Additional observations from a re-analysis of the deposited data

How the results depend on the processing

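Under 13 alternatives, the counts of 6 lower and 3 higher genes among the 10 stayed within 1.5 times, and Gpd1, Gpam, Agpat2, Agpat3, Agpat4, Lpin2, Dgat1 and Dgat2 kept their direction and their call in every one. Lpin1 passed the threshold only with libraries scaled to the same median (-0.15) and ran from -0.080 to 0.013 when single libraries were left out, above 0 only without CTL replicate 1. Lpin3 missed it with no filter on low values (limma adjusted p = 0.0544), with scaled libraries (limma adjusted p = 0.0506) and without 4 single libraries, its adjusted p running from 0.00237 to 0.101, and a filter at RPKM 5 removed it. Scaling to the same median moved the median log2 fold change of all genes from 0.06 to -0.04. In other lists, the lipin phosphatase complex had 1 lower gene in place of 0 with scaled libraries, in the authors' log2 values and without 4CBA replicate 1. With the replicate number as a block no call of the 10 genes changed (Gpd1 adjusted p = 5.37e-08 and Lpin3 adjusted p = 0.0251, limma). Same-numbered libraries did not deviate together (r = -0.067, -0.033 and -0.027), so no shared shift by number was seen. These correlations cannot show whether the samples were prepared in pairs. With 3 libraries per group no exact permutation test of a paralog ratio could go below p = 0.1, and outlying libraries were not tested for.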
